A study of Mus musculus with 2 samples.

Results

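Head-to-head coding promoters were pairs of protein-coding genes on opposite strands, transcribed away from each other, with the minus-strand gene to the left and with 0 to 1000 bp between their gene-level 5' ends in GENCODE release M21. There were 755 such pairs, holding 1489 of 21938 protein-coding genes (6.79%), because 21 genes took part in 2 pairs. Each region was the span between both 5' ends with 500 bp on each side, and the median region was 1130 bp wide. The median distance between the 5' ends was 129 bp, with quartiles at 66.5 and 240 bp, and 619 pairs (82.0%) lay at most 300 bp apart. Pairs were compared with 17034 single promoters, which were windows of 500 bp to each side of the 5' end of coding genes with no other coding transcription start site (TSS) within 5000 bp. The definition of either set used no measured value, although the sets were chosen with earlier results of these data known.

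DNase-seq cuts nuclear DNA with DNase I where nucleosomes and bound proteins leave it exposed, and it had been applied to left cerebral cortex of male mice aged 2 months. The animals were B6CASTF1/J, the F1 hybrid of the C57BL/6J and CAST/EiJ strains, with no treatment or second genotype. The 2 samples formed 1 group and were numbered as biological replicates, although both carry the same donor record. The signal is an average over all cells of bulk tissue, so fewer open cells and weaker opening in each cell cannot be told apart.

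A head-to-head promoter serves the transcripts of both genes from a shared, usually nucleosome-depleted stretch of DNA, with a core promoter at each end that points outwards. Such promoters are commonly rich in CpG dinucleotides and poor in TATA boxes. Genes for DNA repair, mitochondrial proteins and core histones are well known among them.

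The sequences between both 5' ends are shown for 10 pairs that carry the results below, so that open, footprinted and closed promoters can be read side by side. All are from mm10, on the plus strand, 5' to 3', starting beside the minus-strand gene, and none overlaps an annotated exon. Capitals mark bases that lay inside a deposited footprint in both replicates; a footprint is a short stretch protected from cutting within open chromatin.
Rita1/Ddx54, chr5:120612590-120612738, among the tallest peaks: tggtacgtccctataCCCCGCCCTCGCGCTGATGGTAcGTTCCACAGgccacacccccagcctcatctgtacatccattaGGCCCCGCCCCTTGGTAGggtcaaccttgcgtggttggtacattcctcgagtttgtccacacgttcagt
Aamp/Pnkd, chr1:74284739-74284929, among the tallest peaks: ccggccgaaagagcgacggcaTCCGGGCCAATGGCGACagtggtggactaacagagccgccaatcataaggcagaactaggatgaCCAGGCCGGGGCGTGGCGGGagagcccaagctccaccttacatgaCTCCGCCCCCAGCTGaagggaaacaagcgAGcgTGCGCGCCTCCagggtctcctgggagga
Fbh1/Ankrd16, chr2:11777583-11777875, among the tallest peaks: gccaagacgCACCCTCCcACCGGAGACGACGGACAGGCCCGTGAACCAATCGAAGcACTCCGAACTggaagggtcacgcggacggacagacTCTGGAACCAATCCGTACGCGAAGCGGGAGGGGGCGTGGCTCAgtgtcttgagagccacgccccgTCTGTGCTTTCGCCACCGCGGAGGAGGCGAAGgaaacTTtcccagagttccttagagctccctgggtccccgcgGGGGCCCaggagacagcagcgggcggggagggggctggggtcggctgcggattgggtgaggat
Nfya/Oard1, chr17:48409907-48410013, among the tallest peaks: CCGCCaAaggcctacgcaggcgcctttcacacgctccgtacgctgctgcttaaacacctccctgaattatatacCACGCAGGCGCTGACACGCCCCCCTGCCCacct
Mob3a/Izumo4, chr10:80701978-80702183, among the most footprints: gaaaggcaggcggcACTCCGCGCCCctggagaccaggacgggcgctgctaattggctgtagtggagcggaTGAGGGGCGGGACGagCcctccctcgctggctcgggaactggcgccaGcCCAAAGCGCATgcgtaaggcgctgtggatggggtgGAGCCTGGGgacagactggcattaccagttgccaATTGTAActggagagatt
B3galt6/Sdf4, chr4:155992650-155992871, the most footprints and a tandem repeat: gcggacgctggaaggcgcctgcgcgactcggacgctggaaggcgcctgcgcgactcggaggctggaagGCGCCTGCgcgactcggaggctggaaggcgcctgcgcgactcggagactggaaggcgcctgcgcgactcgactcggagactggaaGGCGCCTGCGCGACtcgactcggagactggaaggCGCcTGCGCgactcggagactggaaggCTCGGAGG
Mrps12/Sars2, chr7:28741821-28741991, a textbook pair with 3 CCAAT boxes: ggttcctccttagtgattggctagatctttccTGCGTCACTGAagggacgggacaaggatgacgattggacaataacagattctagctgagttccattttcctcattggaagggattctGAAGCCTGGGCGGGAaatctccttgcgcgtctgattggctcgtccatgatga
Brca1/Nbr1, chr11:101551956-101552148, a textbook pair with few footprints between the ends: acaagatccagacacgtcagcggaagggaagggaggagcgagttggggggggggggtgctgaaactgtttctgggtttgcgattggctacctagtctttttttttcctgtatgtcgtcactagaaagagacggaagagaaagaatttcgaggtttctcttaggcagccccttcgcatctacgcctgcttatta
Aspa/Spata22, chr11:73329597-73329740, CpG-rich with no peak: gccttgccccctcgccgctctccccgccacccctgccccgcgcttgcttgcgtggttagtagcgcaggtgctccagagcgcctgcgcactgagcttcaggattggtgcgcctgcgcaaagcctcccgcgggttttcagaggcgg
Bhmt2/Dmgdh, chr13:93674303-93674432, with no peak: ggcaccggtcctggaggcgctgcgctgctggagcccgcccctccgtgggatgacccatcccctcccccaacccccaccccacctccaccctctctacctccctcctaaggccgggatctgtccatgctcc

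Almost all head-to-head promoters were open in cortex, and single promoters were open far less often. A region was called accessible where a peak of the authors' shorter list overlapped it in each replicate. Of the 755 pairs, 699 (92.6%) were accessible, with an exact Clopper-Pearson 95% interval of 90.5 to 94.3%, against 45.4% of single promoters (44.6 to 46.1%). The background over all coding 5' ends was 50.4% in both replicates, 56.2% in replicate 1 and 51.3% in replicate 2. In replicate 1 alone 94.2% of pairs and 51.6% of single promoters held a peak, and in replicate 2 alone 92.6% and 46.3%. The difference was 47.2 percentage points for a peak in both replicates. In replicates 1 and 2 alone it was 42.5 and 46.3, with an SD of 2.67 between these 2 values, so a difference was present in each library. With 1 group of 2 libraries no test between conditions exists, and the intervals cover counting error over regions only.

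Other divergent promoters, outside the definition or with a non-coding partner, were also open more often than single promoters as a whole. Divergent coding pairs whose 5' ends overlap were accessible in 414 of 456 regions (90.8%). Single coding promoters with a long non-coding RNA gene head to head were accessible in 536 of 690 regions (77.7%, 74.4 to 80.7%). Neither share was matched for CpG. Both kinds of region took in both 5' ends with 500 bp on each side, unlike the window of a single promoter. All 5 pairs whose distance lay within 50 bp inside the limit of 1000 bp were accessible, and so were 5 of the 7 pairs within 50 bp outside it. Just inside the limit, Smim7/Tmem38a reached heights of 6.04 and 4.44 in replicates 1 and 2, and Asphd1/Sez6l2 reached 2.22 and 1.49. Just outside it, Sgsm2/Tsr1 reached 3.38 and 1.95, and Acsbg2/1700061G19Rik held no peak.

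**Figure D1:**
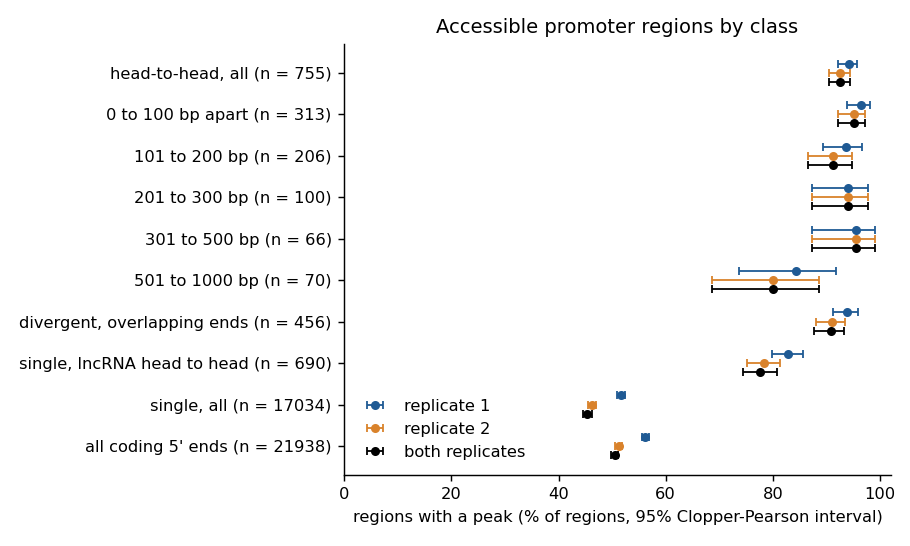
Percentage of regions with a peak (x axis) in each promoter class (y axis), for replicate 1, replicate 2 and both, with exact 95% intervals as bars. Every head-to-head distance class lies at 80.0% or above in both replicates, to the right of all single promoters at 45.4%.

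Pairs were much richer in CpG than single promoters, and the accessibility difference was smaller, but still present, at matched CpG. CpG observed over expected, the number of CpG dinucleotides relative to that expected from the C and G content, was read 150 bp to each side of the midpoint of a pair, or from 200 bp before to 100 bp after a single 5' end, and had a median of 0.851 in pairs and 0.493 in single promoters. Of the pairs, 87.3% fell in the upper 5 of 10 CpG bins of all coding promoters, against 45.7% of single promoters. Within bins, pairs were still open more often from the third bin upwards. In the fifth bin 39 of 45 pairs (86.7%) and 45.3% of single promoters were accessible, and in the tenth 193 of 194 pairs (99.5%) and 89.4%. None of the 13 pairs of the 2 lowest bins was accessible. Weighting single promoters to the bins of the pairs raised their share to 76.2%, which left a difference of 16.4 percentage points for a peak in both replicates. In replicate 1 alone that difference was 9.75 points, and in replicate 2 alone it was 16.1, with an SD of 4.50 between these 2 values.

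**Figure D2:**
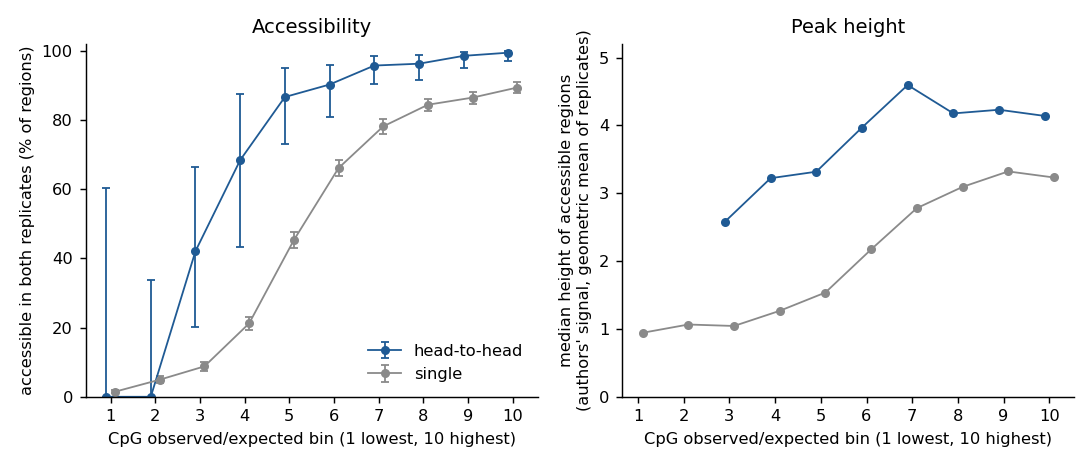
Left, percentage of regions accessible in both replicates, with exact 95% intervals, against CpG bin for head-to-head and single promoters. Right, median peak height of the accessible regions, as the geometric mean over the replicates, against the same bins. In the fifth bin 86.7% of pairs and 45.3% of single promoters were accessible.

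Accessible pairs also carried taller peaks. Height is the authors' signal for a peak, on a scale that the sources used here do not explain. Pairs and single promoters are therefore compared within a replicate, and the tallest peak stands for a region. In replicate 1 the median was 5.35 in accessible pairs (quartiles 3.63 and 7.05) and 3.45 in accessible single promoters, a ratio of 1.55. In replicate 2 the medians were 3.32 and 1.92, a ratio of 1.73. On the geometric mean over replicates the ratio was 1.59, and 48.8% of the pairs lay above the upper quartile of single promoters. For CpG weighting another statistic was used, the mean of the bin medians weighted by the accessible pairs in each bin. It was 4.14 in pairs and 2.90 in single promoters, a ratio of 1.43.

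The tallest pair, Hjurp/Trpm8 on chr1:88277133-88278161, had 5' ends 28 bp apart and heights of 22.9 and 13.5 in replicates 1 and 2, far above the others. Hjurp encodes the chaperone that loads the centromeric histone CENP-A, and Trpm8 is the cold-sensing ion channel of sensory neurons. Tom1l2/Drc3 followed with 10.8 in both replicates. Rita1/Ddx54, the partner an RNA helicase gene, reached 11.4 and 9.0. Aamp/Pnkd had 10.44 and 8.95, and Fbh1/Ankrd16, with a DNA helicase gene on the minus strand, had 11.9 and 7.5. Zfp654/Cggbp1 stood at 11.03 and 7.90, Alg12/Creld2 at 10.5 and 8.16, and Nfya/Oard1 at 11.4 and 7.43. Nfya encodes the subunit of NF-Y that helps bind CCAAT boxes, and the span to Oard1 holds none of the 12 motifs searched.

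Of the 4 textbook pairs that met the rule, 3 lay above the median of pairs in both replicates. Atm/Npat, joining the DNA break kinase to a histone gene activator, had heights of 10.3 and 6.97 at a distance of 307 bp. Mcm4/Prkdc, a replicative helicase subunit beside the catalytic subunit of DNA-PK, had 8.94 and 6.54 at 466 bp. Brca1/Nbr1, a repair gene beside an autophagy receptor, had 7.29 and 7.36 at 194 bp. Mrps12/Sars2, a mitochondrial ribosomal protein beside mitochondrial seryl-tRNA synthetase, had 4.82 and 4.74 at 172 bp. Both Brca1/Nbr1 and Mrps12/Sars2 had nearly equal deposited values in the replicates, whereas most pairs had the larger value in replicate 1. Hspd1/Hspe1, Col4a1/Col4a2 and Surf1/Surf2 have overlapping 5' ends in this annotation and so fell outside the rule.

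Peaks that covered both 5' ends were common in close pairs and absent in the widest. In 390 of 699 accessible pairs (55.8%, 52.0 to 59.5%) a peak covered both 5' ends in both replicates, 63.7% in replicate 1 and 61.5% in replicate 2. The share was 88.9% for pairs at most 100 bp apart, 53.2% above 100 and up to 200 bp, 23.4% up to 300 bp and 4.76% up to 500 bp. No peak covered both ends in any of the 56 accessible pairs more than 500 bp apart, with an exact 95% upper bound of 6.38%. The median peak was 240 bp wide in both replicates, so a typical peak cannot cover the wider spans, and the decline with distance is partly fixed by that width. The centre of the tallest peak lay between both 5' ends in 68.4% of pairs in replicate 1 and 67.1% in replicate 2. Where it lay outside, the sides were balanced: 116 on the minus-gene side and 105 on the plus-gene side in replicate 1, and 115 and 115 in replicate 2.

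Accessibility was high in every distance class and lowest in the widest. In the same 5 classes, from closest to widest, it was 95.2%, 91.3%, 94 of 100 pairs, 95.5% and 80.0% (68.7 to 88.6%). Median heights in replicates 1 and 2 were 4.95 and 2.69 in the closest class and 5.76 and 4.203 above 200 and up to 300 bp. They were 4.98 and 3.33 in the widest class. In that class a peak lay within 250 bp of each 5' end in 34 of 56 pairs in each replicate. The same peak could count at both ends: 37 accessible pairs held 2 or more peaks in replicate 1, but only 31 in replicate 2. With such peaks included, the taller end exceeded the other by a median of 1.64-fold in replicate 1 and 1.59-fold in replicate 2. The smallest ratio was 1 in each replicate. A peak stood near the minus-strand gene alone in 13 pairs and near the plus-strand gene alone in 8 in replicate 1, against 8 and 13 in replicate 2.

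The deposited track of false discovery rates (FDR) gave the shape of the open stretch without peak calls. At the midpoint of pairs at most 100 bp apart, 99.3% of accessible regions had an FDR below 0.001 in replicate 1 and 99.0% in replicate 2. In pairs more than 500 bp apart the midpoint had 58.9% and 50%, and the highest share, 82.1% and 80.4%, lay 353 and 394 bp to the plus-gene side. The width over which at least 50% of regions had such an FDR was 765 and 604 bp in the closest class and, in the widest, at least 1382 bp in replicate 1, where the profile ends 700 bp from the midpoint, and 1184 bp in replicate 2. In pairs at most 100 bp apart the share was higher 300 bp to the left of the midpoint, on the minus-gene side, than 300 bp to the right: 74.5% and 64.8% in replicate 1, and 55.4% and 46.3% in replicate 2. Above 100 and up to 200 bp the sides were closer, with 80.9% and 81.9% in replicate 1 and 56.9% and 60.1% in replicate 2. Single promoters in replicate 1 had 43.8% at 300 bp upstream and 72.2% downstream, but in replicate 2 they had 39.7% and 41.0%, so that asymmetry was seen in 1 library only.

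**Figure D3:**
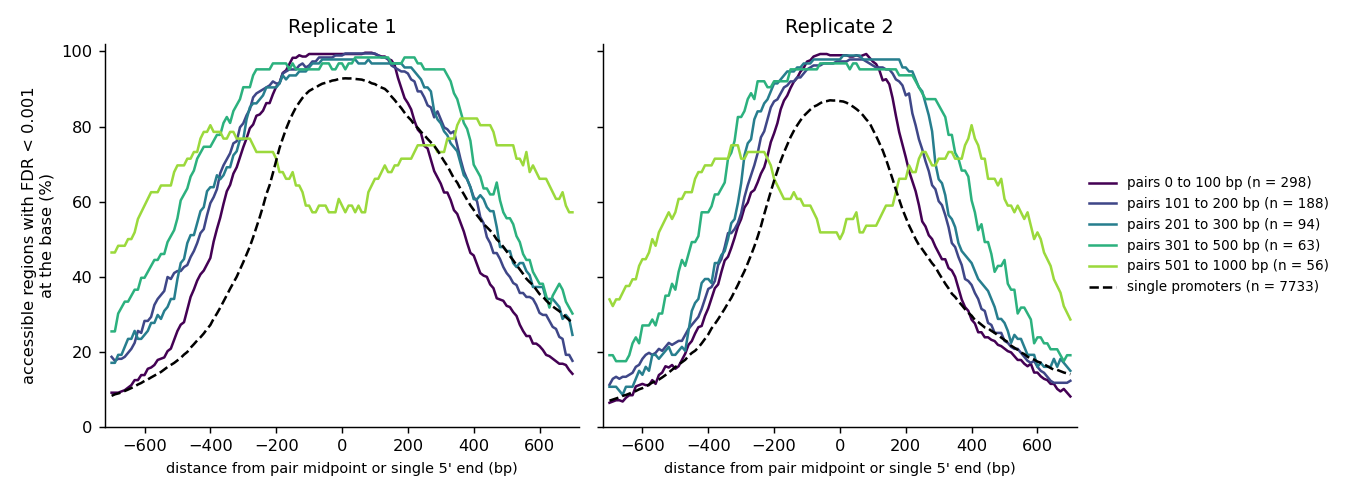
Percentage of accessible regions whose base has an FDR below 0.001 (y axis) against distance in bp from the midpoint of the pair, or from the 5' end of single promoters in the direction of transcription (x axis), in each replicate. Lines are distance classes of the pairs, and the dashed line is single promoters. Pairs more than 500 bp apart dip at the midpoint to 58.9% in replicate 1 and 50% in replicate 2.

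Footprints were found in nearly every accessible pair and were denser per base between the 5' ends than in the flanks. A footprint in both replicates was present in 697 of 699 accessible pairs (99.7%), in 97.9% of accessible single promoters, and in 98.1% of all accessible coding 5' ends, so the presence of a footprint barely separates them. The difference of 1.85 points was 2.04 in replicate 2 alone and 0.678 in replicate 1 alone. Pairs held a mean of 8.57 footprints in replicate 1 and 6.76 in replicate 2, against 6.95 and 5.08 in single promoters. Per kb of bases with an FDR below 0.001 the order was the other way, 10.03 and 9.39 in pairs against 10.5 and 9.65 in single promoters. Between the 5' ends there were 16.1 and 15.4 footprints per kb, against 5.57 and 3.90 in the 500 bp flanks, counted over all bases and not over open bases. The ratio of span to flank was 3.87 and 5.07 in pairs at most 100 bp apart, and 1.99 and 2.61 in pairs more than 500 bp apart. Single promoters also had more footprint bases near the 5' end: in replicate 1 footprints covered 25.7% of bases within 50 bp of the 5' end and 3.53% at 300 to 400 bp from it, against 36.7% and 2.81% around the midpoint of pairs at most 100 bp apart.

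B3galt6/Sdf4, a galactosyltransferase gene beside a Golgi calcium-binding protein gene, held the most footprints, 31 in replicate 1 and 15 in replicate 2, at heights of 4.56 and 3.21. Its span holds 7 exact copies of the 20-mer ctggaaggcgcctgcgcgac, and 22.5% of the 25-mers of its region occur more than once in the genome. The sources used here do not say how repeats were treated when footprints were called. Cdca2/Kctd9 held 22 and 16 footprints, Cep57/Fam76b 19 and 17, and Mob3a/Izumo4 18 and 15. Cbx5/Hnrnpa1, a heterochromatin protein gene beside an RNA-binding protein gene, held 17 and 16. Cryzl1/Itsn1, with an endocytic scaffold gene, held 19 and 14.

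ETS, CCAAT, YY1 and ZBTB33 words were more frequent in pairs than in single promoters, also at matched CpG. Motifs were exact words searched on both strands in the windows in which CpG was read. In pairs at most 300 bp apart that window holds the 5' ends of 2 genes, against 1 in a single window. The shares were not adjusted for this. A match is a description of letters and not a shown binding site. The ETS word CCGGAAG occurred in 27.9% of pair windows (24.8 to 31.3%), 9.41% of single windows and 11.3% of all coding windows. The CCAAT word CCAATC occurred in 28.9%, 16.8% and 17.6%, and the YY1 word AAGATGGCG in 5.83%, 1.64% and 2.08%. With single windows weighted to the CpG bins of the pairs, the single share was 15.99% for ETS, 19.1% for CCAAT and 3.20% for YY1, each still below the interval of the pairs. Among accessible regions alone the shares were 29.8% of pairs and 17.4% of single promoters for ETS, and 29.3% and 20.9% for CCAAT. The ZBTB33 word TCTCGCGAG was found in 3.31% of pairs, 0.704% of single and 0.889% of all coding windows, and 1.53% of single windows after weighting.

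For several words the difference shrank with CpG weighting. NRF1 GCGCATGCG stood at 4.64% of pairs, 2.34% of single and 2.53% of all coding windows, and at 3.99% of single windows after weighting, which lies inside the interval of the pairs (3.25 to 6.39%). CRE TGACGTCA stood at 4.37%, 2.25%, 2.4% and 3.77% in the same order, and the E-box CACGTG at 10.7%, 7.22%, 7.69% and 10.3%. For SP/KLF GGGGCGGGG the pairs had 20.7%, single windows 14.1% and all coding windows 14.6%, but weighting put single windows at 24.9%, above the pairs. CTCF AGGGGGCGC (1.59%, 1.56% and 1.53%), ZNF143 ACTACAATT (0.795%, 0.452% and 0.456%) and MEF2 CTATTTNTA (0.927%, 1.21% and 1.13%) were rare in all 3 sets, and the order for CTCF and MEF2 also turned with weighting. The MEF2 word contains the TATA word on the other strand when its open base is A, and otherwise no word contains another.

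The TATA word TATAAA was rarer in pairs. It occurred in 33 pair windows (4.37%), in 12.6% of single windows and in 11.6% of all coding windows. After weighting to CpG bins the single share was 6.36%, above the interval of the pairs (3.03 to 6.08%). Among accessible regions alone the word stood at 4.29% of pairs and 5.64% of single promoters, a difference of -1.35 points, and the single share then lies inside the interval of the pairs. Of the 33 pairs, 10 held histone genes, and without histone pairs the share was 23 of 741 (3.10%).

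**Figure D4:**
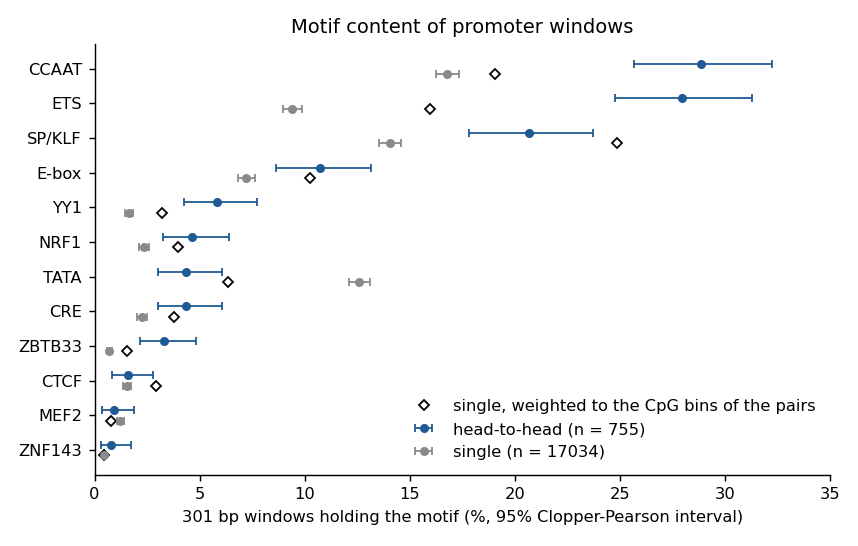
Percentage of promoter windows that hold each word on either strand (x axis) for the 12 motifs (y axis), in head-to-head and single promoters, with exact 95% intervals. Open diamonds give single promoters weighted to the CpG bins of the pairs. ETS stands at 27.9% in pairs and 15.99% in weighted single promoters, and SP/KLF at 20.7% and 24.9%.

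ETS and CCAAT words followed the distance between the 5' ends differently. The ETS word was present in 38.3% of accessible pairs at most 100 bp apart, and in 29.8%, 26.6%, 14.3% and 7.14% of the 4 wider classes in order. The CCAAT word rose from 20.8% to 35.6% and 47.9% over the first 3 classes, and then stood at 28.6% and 23.2%. The window is centred on the midpoint, so in wider pairs it reaches less of the DNA beside each start. Fbh1/Ankrd16 carries 3 CCAAT words between its ends, of which 2 lay wholly in footprints of both replicates. Mrps12/Sars2 also carries 3, none touched by a footprint in both replicates.

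Accessible pairs with a CCAAT word had taller peaks. Their median heights were 6.03 in replicate 1 and 4.48 in replicate 2, against 5.01 and 2.91 without the word. The same order held in each of the 5 distance classes and both replicates, for example 5.35 and 3.57 with and 4.72 and 2.53 without it in the closest class. Single promoters showed it too, at 4.57 and 2.80 with the word and 3.22 and 1.73 without. For ETS the medians of pairs were 5.30 and 3.19 with the word and 5.38 and 3.39 without, while single promoters with ETS stood at 4.22 and 2.43, against 3.26 and 1.79 without. Median CpG observed over expected was 0.834 with and 0.882 without a CCAAT word.

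Footprints covered some words much more often than others. In accessible pairs a footprint overlapped 93.8% of 64 NRF1 matches in replicate 1 and 89.1% in replicate 2, and 94.3% and 91.4% of 35 CRE matches. The 64 NRF1 matches lay in 35 windows, and 39 ZBTB33 matches lay in 21. Matches on the 2 strands that overlap at different starts counted separately, so not every match is a separate site. For SP/KLF the shares were 86.9% and 73.2%, and for ZBTB33 87.2% and 79.5%. ETS words were overlapped in 48.5% and 45.9%, YY1 in 57.8% and 33.3%, and CCAAT in 37.4% and 33.8%. Any 8 bp word of these windows touched a footprint in 36.7% and 31.7% of positions, and the CCAAT word stood near that level. The CCAAT word has 6 bp, and a shorter word touches footprints less often, so this level is only a rough yardstick. The other words were not all 8 bp long either. In single promoters the shares were 92.5% and 88.3% for NRF1 and 37.1% and 31.4% for CCAAT, beside 30.3% and 23.8% for any 8 bp word of single windows.

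By gene function, 196 pairs held a member of 18 gene lists, and 184 of them were accessible, beside 92.6% of all pairs. The counts of most lists lay near that share, so they describe the members and set no list apart. All 18 pairs with mitochondrial ribosomal protein genes were open, led by Mrps18b/Ppp1r10 at 9.63 and 7.12 and Mrpl49/Fau at 10.6 and 5.75. All 24 with respiratory chain genes were open, led by Tepsin/Ndufaf8, an assembly factor of complex I, at 8.43 and 6.31 and Uqcrq/Gdf9, a complex III subunit, at 7.34 and 6.96. Of the 103 respiratory chain genes 23.3% were in pairs, and of the 78 mitochondrial ribosomal genes 23.1%, against 6.79% of all coding genes. Mrpl32/Psma2, which joins a mitochondrial ribosomal gene and a proteasome gene, reached 7.34 and 5.23, and all 8 proteasome pairs were open. The 5 mitochondrial import pairs were open as well, among them Sdhd/Timm8b at 5.15 and 3.23.

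Pairs with genes that handle nucleic acids were open at shares near the 92.6% of all pairs. The same lists' genes outside pairs were also mostly open, some at lower shares. These were 76.6% for zinc finger, 80.7% for cytosolic ribosomal, 83.3% for splicing and 89.8% for DNA repair and replication genes. They were 93.5% for aminoacyl-tRNA synthetases and 20 of 20 for RNA polymerase subunits. Of the 35 pairs with DNA repair and replication genes 34 were accessible, among them Atm/Npat and Mcm4/Prkdc. Their list had 28.5% of its genes in pairs. All 9 pairs with RNA polymerase subunit genes were accessible, such as Lnx2/Polr1d at 8.11 and 4.31, and all 11 with splicing factor genes, such as Qpctl/Snrpd2 at 7.59 and 6.38. All 5 aminoacyl-tRNA synthetase pairs were accessible, with S100pbp/Yars at 6.06 and 3.44. Of 19 zinc finger pairs 18 were accessible, and Zfp277/Dock4 reached 9.15 and 6.48. Of 10 cytosolic ribosomal pairs 9 were accessible, including Med22/Rpl7a at 10.9 and 6.02, and the symbol pattern also matched Rps6kb1, a kinase gene.

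The remaining lists held few pairs or lay near the share of all pairs. Traffic genes were accessible in 11 of 12 pairs, ubiquitin genes in 14 of 15 and solute carriers in 15 of 16, led by Cdk5/Slc4a2, a neuronal kinase gene beside an anion exchanger gene, at 9.38 and 8.12. Only 4 of 239 neuronal and synaptic genes (1.67%) were in pairs, and all 4 regions were accessible. Tmem126b/Dlg2, with a postsynaptic scaffold gene, had 8.03 and 5.87, and Nlgn2/Tmem256, with the neuroligin of inhibitory synapses, had 5.67 and 5.38. Pairs with the endothelial gene Pecam1, the collagen genes Col4a4 and Col4a3, and the protocadherin gene Pcdh12 held no peak. The collagen pattern also took in Polk/Col4a3bp, a lipid transfer protein gene and no collagen, which was open at 6.34 and 3.82.

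Of the 755 pairs, 44 held no peak in either replicate, 12 held one in replicate 1 only and none in replicate 2 only. These 44 were CpG-poor, with a median CpG observed over expected of 0.258 against 0.867 in accessible pairs, and 36 of them held no peak of the longer lists either. Of the 44, 12 held a gene model named Gm or Rik, against 78 of all 755. The closed pairs named here had the highest CpG after 7 others were passed over, which held a Gm or Rik model or had at least 50% of their 25-mers in more than 1 place in the genome. Lypd4/Dmrtc2 and Aspa/Spata22 each include a gene with testis or germ cell roles, and Aspa is the aspartoacylase of oligodendrocytes. Bhmt2/Dmgdh holds choline pathway enzymes of liver and kidney, Duox2/Duoxa2 the thyroid hydrogen peroxide generator and its maturation factor, and Tssk3/Fam229a a testis kinase. Hist1h2ba/Hist1h2aa are the testis-specific histone pair. Their CpG ran from 0.542 to 0.925, and footprints were absent from all of these regions except 1 in replicate 1 at Tssk3/Fam229a.

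Some closed pairs belonged to widely expressed genes that were open elsewhere. In 14 of the 44, at least 1 of the genes had a peak in both replicates within 500 bp of another of its annotated TSS. That TSS could lie far away, as at 4931428L18Rik with 126230 bp. The matching share of closed single promoters was not computed, so the count does not set pairs apart. Reading all single promoters at any annotated TSS raised their accessible share from 45.4% to 51.2%. Rps2, a small-subunit ribosomal protein gene, had heights of 8.46 and 5.42 at a TSS 2157 bp from the gene-level 5' end shared with Rnf151. Xrcc1, a strand-break repair scaffold, had 9.41 and 5.81 at a TSS 1044 bp from the end shared with Pinlyp. Ccnt1, a cyclin of transcription elongation, had 12.8 and 7.81 at 3243 bp, and Dgcr2, beside the testis kinase gene Tssk2, had 8.82 and 5.10 at 6869 bp. For such pairs the head-to-head 5' end was not the annotated start with the peak. These pairs were picked out after their values were seen.

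The 5 open pairs with the lowest CpG showed the opposite combination. Abca17/Abca3, with a surfactant lipid transporter gene, had heights of 7.54 and 4.11 at a CpG observed over expected of 0.193. Sirt6/Ankrd24, with a nuclear deacylase gene, had 4.24 and 2.88, and Tas1r1/Nol9, a taste receptor gene beside a ribosome biogenesis gene, had 4.43 and 1.90. Kirrel2/Nphs1, which encode adhesion proteins of the kidney filter, had 1.21 and 0.912. Cbln3/Khnyn had 2.08 and 0.945. All 5 had ends more than 500 bp apart, so their CpG window at the midpoint lies away from both starts.

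Heights in the replicates moved together across pairs, with Pearson's r of 0.858 on the log2 scale and Spearman's rho of 0.857 over 699 pairs of 1 group. The points share both libraries, so this is a description across regions. Replicate 1 was the taller in 660 pairs (94.4%), and the median log2 ratio of replicate 2 to replicate 1 was -0.71. The scaling is unknown, so taller in a replicate means a larger deposited value only. The ratio of a pair is best read against that median. Over all accessible coding 5' ends, replicate 2 was the taller in 4.59%.

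Histone gene pairs went the other way in every case. All 11 accessible pairs with replication-dependent histone genes were taller in replicate 2, with log2 ratios from 0.46 to 1.44, against 28 of the other 688 (4.07%). Their heights ran from 1.38 to 3.18 in replicate 1 and from 3.03 to 5.33 in replicate 2. In 8 of the 11, at least 50% of the 25-mers of the region occur more than once in the genome, so reads of near-identical genes may be shared among them. The other 3 were Hist1h2bh/Hist1h3f at 1.69 and 3.36, Bola1/Hist2h2ab at 1.75 and 3.03, and Hist2h2ac/Hist2h2be at 2.50 and 3.44. Their shares of such 25-mers were still 20.2%, 11.9% and 31.1% in that order. Bola1/Hist2h2ab and Hist2h2ac/Hist2h2be are neighbouring regions on chromosome 3. Histone genes outside the pairs were taller in replicate 2 in 15 of 36 accessible promoters. Of the 14 histone pairs 12 hold the CCAAT word and 10 the TATA word. Whether the copies of these genes or anything else in the libraries has a part in this was not tested.

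**Figure D5:**
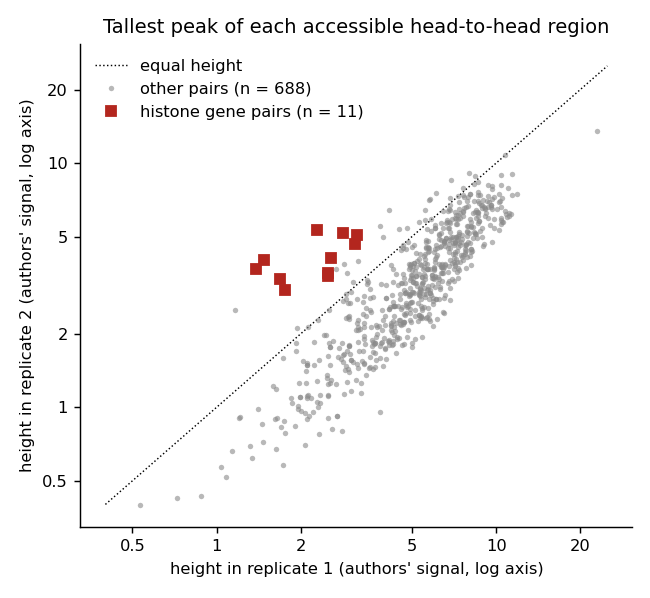
Height of the tallest peak in replicate 2 (y axis) against replicate 1 (x axis), both log axes in the authors' signal, for 699 accessible head-to-head regions. The 11 histone gene pairs lie above the dotted line of equal height, and 28 of the 688 other pairs do.

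Some pairs without histone genes were also named for a replicate ratio far from the median. Their number was set by the naming rule, so it does not show how many pairs deviated. Under that rule, pairs with a Gm or Rik model were passed over. Baz2b/March7 had 3.84 in replicate 1 and 0.952 in replicate 2, a log2 ratio of -2.01. Tbc1d10b/Mylpf had 3.83 and 5.55, and Gla/Hnrnph2 had 2.66 and 3.70.

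On the X chromosome 14 of 20 pairs (70.0%, 45.7 to 88.1%) were accessible, against 93.2% of autosomal pairs, and single promoters stood at 35.9% on X and 46.3% on autosomes. Median heights of the accessible pairs were 2.60 and 1.91 on X and 5.39 and 3.36 on autosomes. Single promoters had 1.67 and 1.04 on X and 3.58 and 1.98 on autosomes. The mice were male and carry 1 X chromosome, and the part of copy number in these heights was not tested.

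The tissue label was read at the promoters of marker genes. Of 8 cortical neuron markers 4 were accessible in both replicates (Camk2a, Emx1, Neurod6 and Snap25) and 6 in replicate 1. Over all coding 5' ends the shares were 50.4% and 56.2%, so these small counts do not establish the label. Astrocyte promoters were open in both replicates in 2 of 4, oligodendrocyte promoters in 3 of 4, and microglia, endothelium, liver and Hox promoters in none of 4 each. A peak in replicate 1 alone was found at 1 endothelial promoter. The only cerebellar marker open was Cbln3, which is itself a member of a head-to-head pair. Libraries held 65017 and 76962 peaks in the shorter lists and 280338 and 245020 footprints. No read counts were among the files used here, so the depth is unknown.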

How the data were processed

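Peaks, footprints and false discovery rates were used as deposited by the authors on mm10, per the labels. Peak heights are the authors' signal, and the sources used here name no scaling, aligner, peak caller or footprint caller. The authors' deposited FDR track, of the kind of p-values and q-values, lists bases under 0.05, and a stricter limit of 0.001 was applied. The footprint lists' deposited value column holds the constant 0.01, so only positions were used. Of the 2 peak lists of each replicate the shorter was used, and overlapping peaks were joined with the highest height, which removed 1089 and 522 intervals. Overlap meant at least 1 bp. Genes came from GENCODE release M21 and sequence from GRCm38.p6. No test was run, since 1 group of 2 libraries allows none; shares carry exact Clopper-Pearson 95% intervals, which cover counting error over regions. Standardised values weight single promoters to the 10 CpG bins of the pairs. Pairs named are the 8 tallest, the 6 with most footprints, the 6 without a peak and highest CpG, the 5 open with lowest CpG, the 5 with extreme replicate ratios, textbook pairs, pairs near the 1000 bp limit and up to 3 per gene list. Gm or Rik models and regions with at least 50% repeated 25-mers were passed over, and a few pairs that this rule names are not reported here. Members and lists were chosen with earlier results of these data known. Functions were tested on simulated regions with Python 3.11.15, numpy 2.4.6 and scipy 1.17.1.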

Additional observations from a re-analysis of the deposited data

How the results depend on the processing

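Every alternative kept the direction of the accessibility difference, the height ratio, the footprint difference and the CpG-weighted difference. The accessibility difference of 47.2 points became 43.5 with the longer peak lists, 51.9 with peaks at or above each list's median height, 50.2 against single promoters with no TSS of any gene within 5000 bp, and 41.4 with single promoters read at any annotated TSS, an alternative chosen after seeing the data. Leaving out a replicate gave 42.5 to 46.3 points. The CpG-weighted difference of 16.4 became 22.3 with the taller peaks and 9.75 to 16.1 without a replicate, lowest without replicate 2. The height ratio of 1.59 became 1.80 with the longer lists, 1.41 with the taller peaks, 1.61 without histone pairs, 1.57 for pairs within 300 bp, 1.54 with an overlap of at least 100 bp, 1.56 with 250 bp on each side, 1.66 against the strictest single promoters, and 1.77 to 1.78 without a replicate. The share with a peak over both ends, 55.8%, became 66.7% for pairs within 300 bp, 70.4% where an end within 50 bp of the peak counted, and 61.5 to 63.2% without a replicate. The footprint difference of 1.85 points became 5.04 with the longer lists, 0.759 with the taller peaks, 3.25 with 250 bp on each side, and 0.678 to 2.04 without a replicate. In accessible regions the pair minus single difference turned for SP/KLF (-1.43 points), CTCF (-1.02) and MEF2 (0.16), and after CpG weighting it turned for the same words (-4.21, -1.34 and 0.144). Of 66 alternatives of the main results 42 stayed within the replicate SD or 1.5 times the count, those of the motif and gene list counts among them. No paired analysis was possible because there is 1 group. The depth is unknown, so what was missed in either replicate cannot be given.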
